A study of Homo sapiens with 3 samples.

Results

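The genes described here are 51 members of the bone morphogenetic protein (BMP) and transforming growth factor beta (TGF-beta) pathways, among 20037 protein-coding genes, and the ERRγ binding sites that the study's annotation placed nearest to them. ERRγ (estrogen-related receptor gamma, gene ESRRG) is an orphan nuclear receptor that is known for binding genes of energy metabolism. Its sites were mapped by chromatin immunoprecipitation with sequencing (ChIP-seq) in BT-474, an established human luminal breast cancer line with amplified ERBB2. The series holds 2 libraries precipitated with a custom ERRγ antibody from a research laboratory and 1 of input DNA, all from vehicle-treated cells collected 90 min after a change to fresh medium. No library from ERRγ-depleted cells was analysed here, and the identity of the line cannot be checked from binding sites. All peaks whose deposited gene name was a member were taken, at any distance from the transcription start site (TSS). This gave 66 of the 15223 peaks in the deposited list, named for 27 of the 51 genes. The other 24 genes count as without a peak.

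The list is a single merged one with no value per library, so it carries no replicate spread, the read depth is unknown here, and no test between libraries could be made. Intervals are exact Clopper-Pearson 95% intervals and cover counting error only. Each peak has a score from the authors, whose unit the headers do not give; over the whole list it ran from 50 to 3227 with a median of 106, and 158 peaks were tied at 3100. Coordinates are those of the deposited table, on hg19.

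BMPs, growth and differentiation factors (GDFs), activins and TGF-betas are secreted dimers that join type I and type II serine/threonine kinase receptors on the cell surface. The type I receptor phosphorylates receptor SMADs, which enter the nucleus with SMAD4 and regulate genes such as the ID family. TGF-beta and activin signal mainly through SMAD2 and SMAD3, and BMPs through SMAD1, SMAD5 and SMAD9. In breast epithelium TGF-beta is known as a growth inhibitor that can also favour invasion in advanced tumours.

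No pathway gene had an ERRγ peak centred within 1 kb of its TSS, and most peaks of these genes were distal. Of the 66 peaks, 55 (83.3%) were centred beyond 10 kb, against 80.5% of all peaks. At any distance, 27 of 51 members had a peak (52.9%, interval 38.5 to 67.1), where 29.6% of all protein-coding genes did. Within 100 kb it was the same 27, against 26.5% of protein-coding genes, so every member that had a peak had at least 1 within this distance. Within 50 kb it was 22 members (43.1%, 29.3 to 57.8) against 22.6%, and within 10 kb 10 members (19.6%, 9.82 to 33.1) against 11.5%. Within 1 kb the count was 0 of 51, which allows a share of up to 5.88% when a count of 0 is set to 3 (exact upper limit 6.98%), against 4.16% of protein-coding genes. At this list size the lack of peak centres within 1 kb is therefore not distinguishable from the background share. The peaks of ID2 (centre at -1312 bp, width 1981 bp) and ACVR1B (centre at 1649 bp, width 1588 bp) reached into this window. The interval of the members lay above the background share at any distance, 100 kb and 50 kb and held it at 10 kb and 1 kb. The members were chosen with earlier results of these data known, so this comparison is descriptive and not a test of an excess. Because a peak names only the nearest TSS, a gene with long stretches between it and its neighbours is named more often; the part of this in the counts was not tested.

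**Figure D1:**
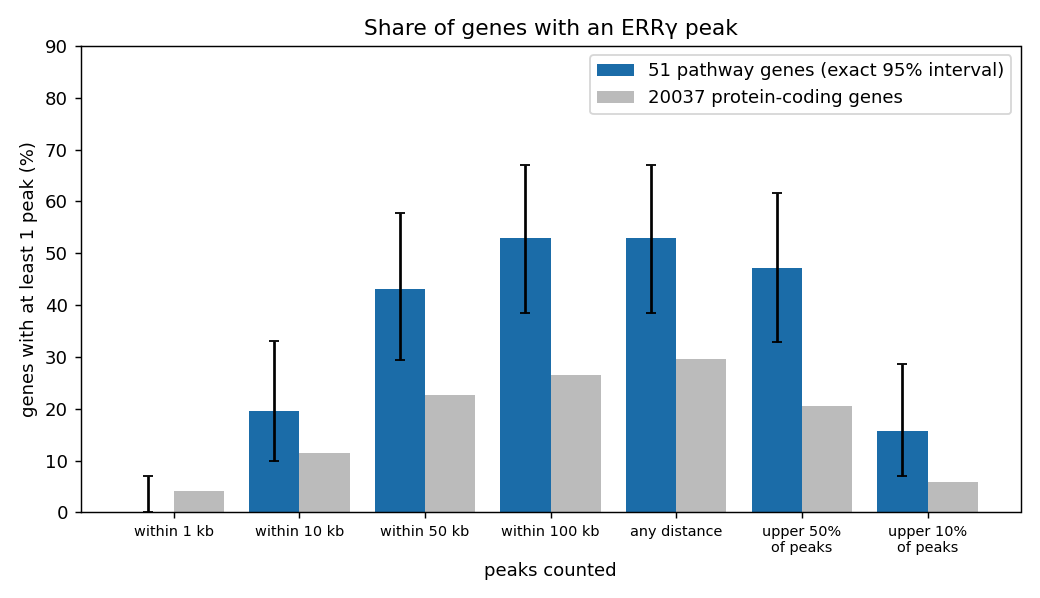
Bars give the percentage of genes with at least 1 ERRγ peak within each distance of the TSS, or among the upper 50% or 10% of peaks by score at any distance. Blue bars are the 51 pathway genes with exact 95% intervals (counting error only) and grey bars all 20037 protein-coding genes; the blue bar is at 0 within 1 kb and at 52.9% at any distance.

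Strong peaks were also found among the pathway genes. From the upper 50% of the peaks by score, 24 of 51 members kept a peak (47.1%, 32.9 to 61.5), against 20.5% of protein-coding genes. From the upper 10%, with scores of 592 or more, 8 members did (15.7%, 7.02 to 28.6), against 5.84%. These 8 were BMP5, SMAD7, SMAD2, ID2, TGFBR2, BMP4, ACVR1B and TGFBR1; the lowest of them, TGFBR1, scored 637, and the next below the limit was BAMBI with 580. The strongest score of each of the 27 genes had a median of 226, beside 180 over the 5939 protein-coding genes with a peak. Of the 27 genes 9 had a single peak and 8 had 2. The median was 2 peaks per gene and the mean 2.44, against 1 and 2.20 over protein-coding genes with a peak. TGFBR2 and ID2, with 7 and 6 peaks, were the 2 members with 5 or more (7.41%, against 9.46%).

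**Figure D2:**
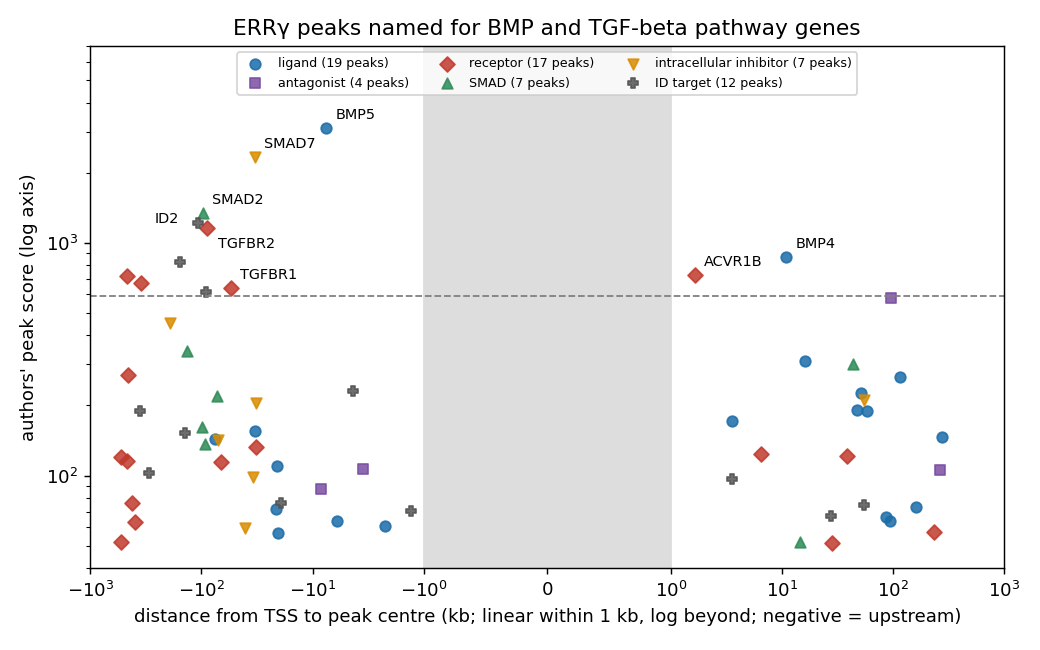
Each point is 1 of the 66 peaks, with its distance from the TSS on the x axis (kb, linear within 1 kb and logarithmic beyond, negative upstream) and the authors' score on a log y axis; colours and shapes give the role of the gene. The grey band marks 1 kb on either side of the TSS and holds no peak centre. The dashed line is the score of 592 that bounds the upper 10% of all peaks.

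By role, peaks were named for 9 of 20 ligand genes (45.0%, interval 23.1 to 68.5), 3 of 5 genes of extracellular or membrane antagonists (60.0%, 14.7 to 94.7) and 6 of 11 receptor genes (54.5%, 23.4 to 83.3). They were named for 3 of 6 receptor or common SMAD genes (50.0%, 11.8 to 88.2), 3 of 4 intracellular inhibitor genes (75.0%, 19.4 to 99.4) and 3 of 4 ID genes (75.0%, 19.4 to 99.4). BMP1, a protease that cleaves chordin and procollagen and is not a ligand despite its name, had no peak. All of these intervals overlap, and the small lists give no order among the roles. Each interval also holds the 29.6% of all protein-coding genes with a peak at any distance.

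Among the ligands, BMP5 had the strongest peak of all members. This peak, at chr6:55746973-55748792, lay -7.51 kb from the TSS in intergenic sequence and scored 3100, sharing rank 18 of the list with the other peaks of that score. BMP5 had further peaks of 192 in intron 1 of 6, 47.6 kb downstream, and of 56.6 at -20.6 kb. The single BMP4 peak (chr14:54409436-54411174) lay 10.97 kb downstream of the TSS, was intergenic, and scored 871. BMP4 is a morphogen of epithelial and mesodermal development, and its peak had a mean conservation of 0.31 on a scale from 0 to 1, where the median of all peaks was 0.07.

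The remaining ligand peaks scored below the upper 10%. TGFB2 had 4 peaks, all downstream of the TSS, with 311 in intron 1 of 6 at 16.1 kb, 265 at 114.7 kb, 146 at 273.9 kb and 66.5 in intron 2 of 6 at 86.6 kb. TGFB3 had 172 in intron 1 of 6 at 3.58 kb, and a peak of 73.1 at 159.5 kb that lay inside the gene TTLL5. INHBB, which encodes the beta B subunit of activins and inhibins, had 226 and 190 at 52.0 and 58.1 kb and 60.6 at -2.21 kb. That last peak had the highest GC and CpG fractions among the member peaks, 0.660 and 0.0654. GDF6 scored 155 at -33.0 kb and 63.8 at 93.2 kb, and GDF10 144 at -74.9 kb and 71.8 at -21.5 kb. GDF15, a stress-induced cytokine that acts through the receptor GFRAL, had 110 at -21.0 kb in the 3' UTR of PGPEP1. GDF11 scored 64.0 at -6.07 kb. No peak was named for TGFB1, INHBA, BMP2, BMP3, BMP6, BMP7, BMP8A, BMP8B, BMP10, GDF5 or GDF7.

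Of the antagonists, BAMBI, a membrane pseudoreceptor without a kinase domain, had the strongest peak, 580 at 96.7 kb downstream (chr10:29062431-29063781), and another of 106 at 262.5 kb. FST, whose product follistatin binds activins, had 1 peak of 107 at -3.51 kb with a conservation of 0.38. GREM1, a secreted BMP antagonist, had 1 peak of 87.6 at -8.42 kb. NOG and CHRD, which encode the BMP-binding proteins noggin and chordin, had none. All 4 antagonist peaks were intergenic.

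Among the receptor genes, TGFBR2, the type II receptor of TGF-beta, was named by the most peaks. It had 7 peaks, more than any other member, all intergenic and all upstream. The strongest, 1155 at -88.3 kb (chr3:30558987-30560468), was also the nearest. The other 6 lay between -347.5 and -532.6 kb and scored 716, 674, 270, 120, 76.3 and 51.9. The next gene in order on the other side of the TSS, GADL1, also carried 2 peaks, the stronger scoring 1366. The 7 TGFBR2 peaks were named by the nearest TSS only, and their distance to the ends of other genes was not measured.

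The type I receptors differed in where their peaks lay. ACVR1B, which encodes the activin receptor ALK4, had 1 peak of 725 in intron 1 of 8, 1649 bp downstream of the TSS (chr12:52348020-52349607); its conservation of 0.47 was the second highest among member peaks. TGFBR1 had 637 at -54.8 kb, inside intron 30 of 41 of the collagen gene COL15A1, and 121 in its own intron 5 of 8 at 38.3 kb. BMPR1B had 114 at -66.9 kb and 57.2 in intron 2 of 12. The type II receptor gene ACVR2A had 4 peaks between 63.0 and 133, of which the nearest, in intron 1 of 10, lay 6.46 kb from the TSS. Its weakest peak, 63.0 at -395.2 kb, had the highest conservation of the member peaks, 0.66. TGFBR3, the coreceptor betaglycan, had 1 peak of 51.5, close to the lower bound of the list. BMPR1A, BMPR2, ACVR1, ACVR1C and ACVR2B had no peak.

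**Figure D3:**
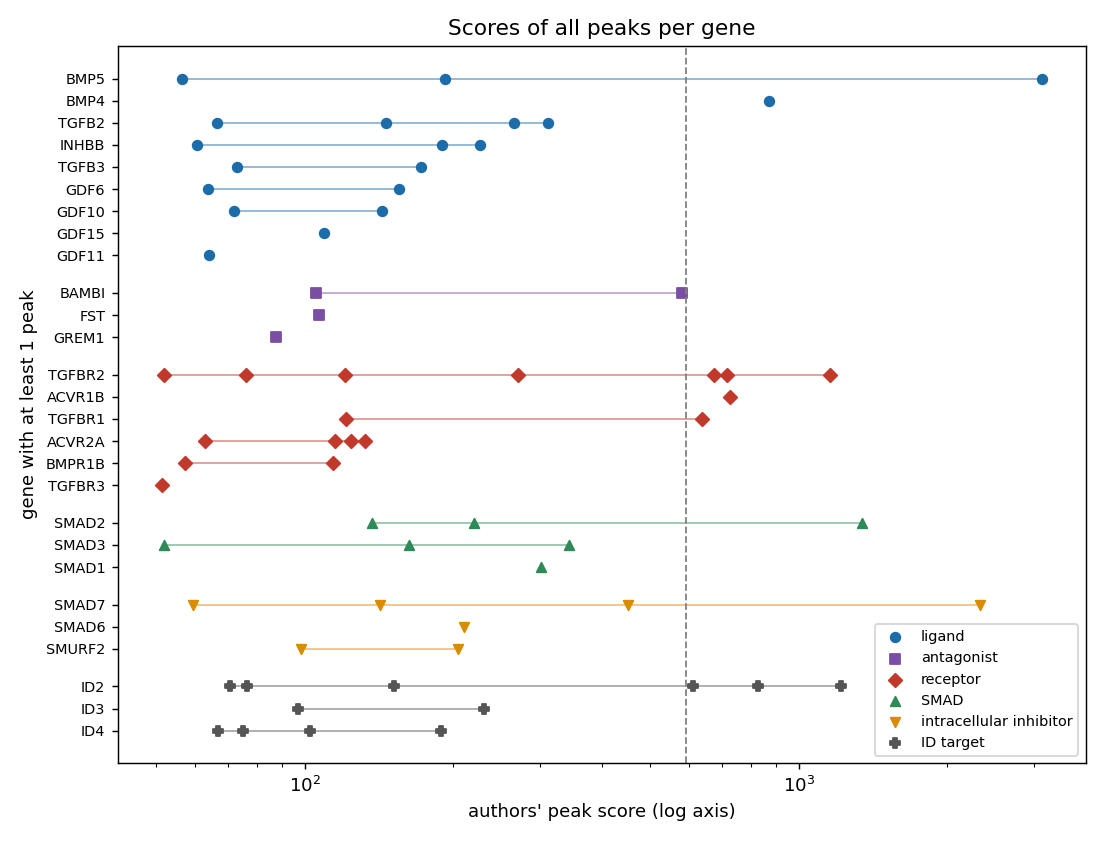
Each row is 1 of the 27 genes with a peak, grouped by role, and each point is 1 peak at the authors' score (log x axis); lines join the peaks of a gene and the dashed line marks the upper 10% of all peaks. TGFBR2 and ID2 each have 3 peaks above the line, and BMP5 and SMAD7 reach 3100 and 2332.

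SMAD2 had the strongest peak among the receptor SMADs, and SMAD7 among the inhibitors. SMAD2 had 3 peaks upstream, of 1345 at -97.3 kb (chr18:45553812-45555776), 220 at -72.5 kb and 137 at -92.6 kb; the strongest lay in the 3' UTR of the neighbouring gene ZBTB7C, which carried 6 peaks of its own of up to 384. SMAD3 had 344 and 162 at -134.1 and -99.5 kb and 52.0 in intron 1 of 8. SMAD1, a receptor SMAD of the BMP branch, had 1 peak of 301 in intron 2 of 6. SMAD4, the common partner, and SMAD5 and SMAD9 of the BMP branch had none.

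SMAD7, the inhibitory SMAD that recruits SMURF ubiquitin ligases to active receptors, had 4 peaks upstream. The strongest scored 2332 at -32.7 kb (chr18:46508741-46510834), and the others 59.5 at -40.8 kb, 142 at -71.1 kb and 451 at -192.9 kb, the last inside the gene DYM. The neighbouring genes CTIF and DYM had 4 and 3 peaks of their own, the strongest at CTIF scoring 2627. Peaks were common on this chromosome: 55.6% of the protein-coding genes of chromosome 18 had one, the highest share of any chromosome. SMAD6, the other inhibitory SMAD, had 1 peak of 210 in intron 4 of 4 at 54.9 kb. SMURF2 had 205 and 98.2 at -32.2 and -34.5 kb, and SMURF1 had no peak.

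The ID genes, which encode inhibitors of basic helix-loop-helix factors and are classical BMP targets, differed in number and strength of peaks. ID2 had 6 peaks, all intergenic and upstream. The strongest 3 lay between -90.8 and -156.7 kb and scored 1217 (chr2:8713134-8715465), 826 and 612, with a further 152 at -141.6 kb. The 2 nearest were weaker, 76.6 at -19.3 kb and 70.5 at -1312 bp, the shortest distance from a TSS of any member peak. ID3 had 231 at -4.36 kb and 97.1 at 3.58 kb. ID4 had 189 and 103 at -359.8 and -298.6 kb and 66.8 and 75.1 at 27.9 and 55.1 kb. ID1 had no peak.

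**Figure D4:**
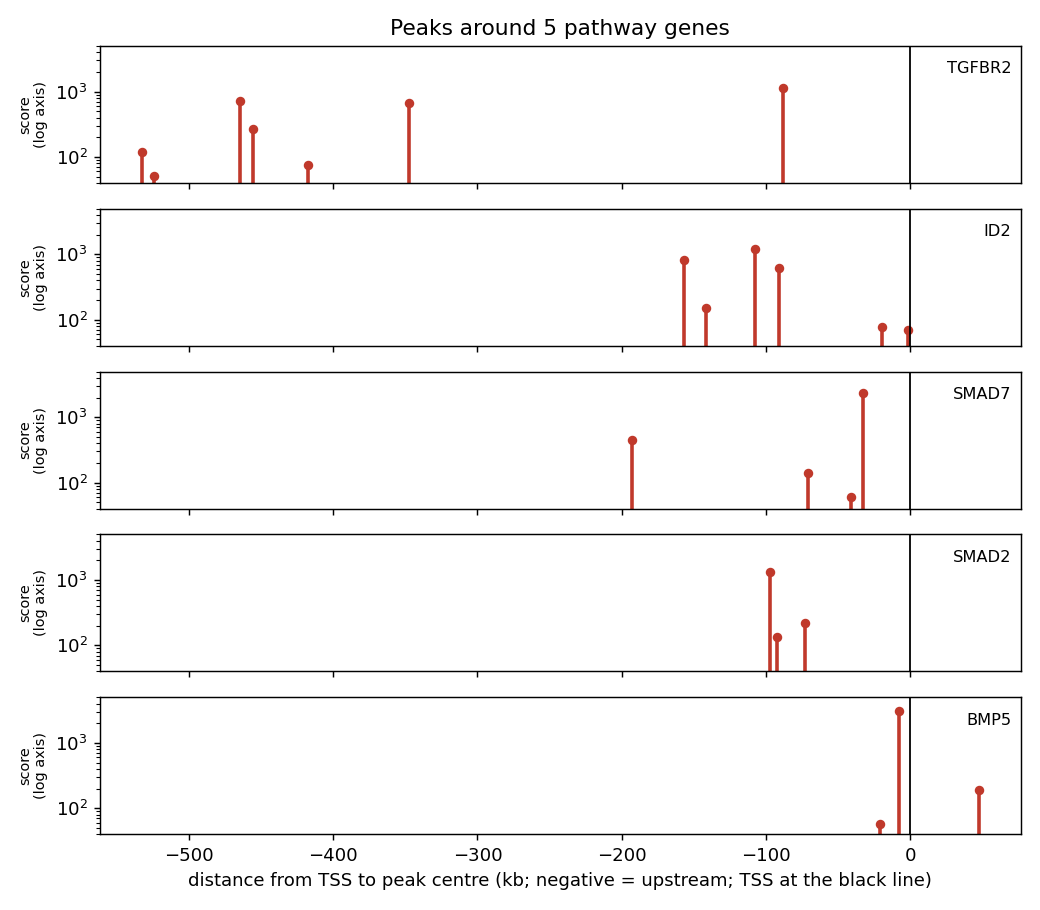
Vertical lines mark the peaks of TGFBR2, ID2, SMAD7, SMAD2 and BMP5 at their distance from the TSS (kb, negative upstream, black line at the TSS), with the authors' score on a log axis. The peaks of all genes shown except BMP5 lie upstream of the TSS, from -1.31 to -532.6 kb.

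Sorted by signalling branch, genes assigned to TGF-beta and activin carried peaks in 10 of 13 cases (76.9%, interval 46.2 to 94.96). Genes assigned to BMP did in 5 of 18 (27.8%, 9.69 to 53.5). The background share at any distance was 29.6%, as above. The first set holds TGFB1, TGFB2, TGFB3, INHBA, INHBB, GDF11, TGFBR1, TGFBR2, TGFBR3, ACVR1B, ACVR1C, SMAD2 and SMAD3. The second holds BMP2, BMP4, BMP5, BMP6, BMP7, BMP8A, BMP8B, BMP10, GDF5, GDF6, GDF7, BMPR1A, BMPR1B, BMPR2, ACVR1, SMAD1, SMAD5 and SMAD9. Neither set holds the ligand genes BMP3 (no peak), GDF10 (2 peaks) and GDF15 (1 peak). ACVR2A (4 peaks), ACVR2B and SMAD4 (no peak) were also left out, and the counts depend on this assignment. Ligands had peaks in 4 of 6 and 3 of 11 cases, receptors in 4 of 5 and 1 of 4, and receptor SMADs in 2 of 2 and 1 of 3. This sorting was made after the values were seen, the intervals overlap, and the difference was not tested. Within 10 kb the counts were 4 of 13 and 1 of 18.

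Compared with all peaks, those of the pathway genes were more often intergenic and upstream. Intergenic positions took 49 of 66 (74.2%, against 51.9% of all peaks) and introns 15 (22.7%, against 41.6%). The other 2 lay in 3' UTRs of neighbouring genes, and 0 carried the authors' promoter annotation, against 3.74% of all peaks. Upstream of the TSS lay 42 of 66 (63.6%, interval 50.9 to 75.1), against 43.4% of all peaks. All peaks of TGFBR2 (7), ID2 (6) and SMAD7 (4) were among them. The upstream share was 42.1% of the 19 ligand peaks and 50.0% of the 4 antagonist peaks. In the other roles with peaks it was between 70.6% and 85.7%. The distances themselves were close to those of the list, with a median of 56.6 kb against 53.4 kb, and 11 peaks (16.7%, 8.62 to 27.9) within 10 kb against 19.5%. In 5 cases the peak lay in a transcript of another gene (TTLL5, PGPEP1, COL15A1, ZBTB7C or DYM). Annotated repeats held 21 of 66 peaks (31.8%, against 34.2%), of which 10 were SINE and 6 LINE elements. The median GC fraction was 0.424 against 0.405, the median CpG fraction 0.00931 against 0.00690, and the median conservation 0.0550 against 0.0700. Scores had a median of 143 against 106, and 12 peaks (18.2%, 9.76 to 29.6) were in the upper 10%. Peaks of 1 gene share a locus, so these counts are of peaks and not of independent genes, and the intervals do not allow for this.

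Some members had peaks of other genes close by. Within 100 kb of the TSS, 21 of the 27 genes with a peak had no peak named otherwise (77.8%). The same held for 3227 of 5274 protein-coding genes with a peak whose TSS could be placed from the table (61.2%), and the difference was not tested. At 4 of the other 6 the strongest such peak scored above the member's own strongest peak: 587 beside ID3 (named for MDS2), 359 for the complex I gene NDUFS4 beside FST, 269 for the complex III gene UQCRB beside GDF6, and 152 for CD63 beside GDF11. Of the 24 members without a peak, 14 (58.3%) lay between protein-coding neighbours that also had none, close to the 62.1% of all protein-coding genes without a peak. Of the 27 with a peak it was 9 (33.3%), against 32.0%. By chromosome the members were too few to read further: 0 of 4 had a peak on chromosome 20, where 25.1% of protein-coding genes had one, and 3 of 3 on chromosome 15, where 28.8% did.

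No peak centre lay within 1 kb of a member's TSS, and no full ERR response element was found in the 74 member promoters searched. With a match in 0.353% of all promoters, this element is too rare for 74 promoters to show a lack of it. RefSeq promoters of GRCh38.p14, from 250 bases before to 50 after each annotated start, were held for 45 of the 51 members, with 74 starts; BMP1, BMP2, BMP3, BMP7, GDF6 and NOG were not matched. The 9-base ERR response element TCAAGGTCA was found, on either strand, in 0 of 74 and in 124 of all 35116 promoters (0.353%). Its 7-base core AAGGTCA, which every such element contains, was found in 3 of 74 (4.05%), against 3.92% of all promoters. The palindromic estrogen response element, searched as GGTCA and TGACC with any 3 bases between them, was in 0 of 74, against 0.0570%. A match is a description of these letters and not a binding site. The 3 promoters with the core are shown 5′ to 3′ along the gene with the core in capitals, which reads TGACCTT where it lies on the opposite strand. Their genes had peaks only at a distance (TGFBR1 and SMAD7) or none (GDF5).
TGFBR1, chr9:99105564-99105863, plus strand: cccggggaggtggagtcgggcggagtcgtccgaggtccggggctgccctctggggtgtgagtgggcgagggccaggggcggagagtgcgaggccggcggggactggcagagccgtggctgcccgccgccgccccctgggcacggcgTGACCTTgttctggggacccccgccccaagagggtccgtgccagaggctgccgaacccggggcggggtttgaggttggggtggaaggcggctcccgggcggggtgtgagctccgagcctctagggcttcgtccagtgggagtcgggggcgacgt
SMAD7, chr18:48942758-48943057, minus strand: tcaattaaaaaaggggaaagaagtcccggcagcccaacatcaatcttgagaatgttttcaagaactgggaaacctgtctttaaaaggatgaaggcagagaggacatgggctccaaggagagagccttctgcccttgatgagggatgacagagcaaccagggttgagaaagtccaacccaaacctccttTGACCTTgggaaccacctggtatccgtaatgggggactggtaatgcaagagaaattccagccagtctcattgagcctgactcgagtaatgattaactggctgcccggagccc
GDF5, chr20:35454700-35454999, minus strand: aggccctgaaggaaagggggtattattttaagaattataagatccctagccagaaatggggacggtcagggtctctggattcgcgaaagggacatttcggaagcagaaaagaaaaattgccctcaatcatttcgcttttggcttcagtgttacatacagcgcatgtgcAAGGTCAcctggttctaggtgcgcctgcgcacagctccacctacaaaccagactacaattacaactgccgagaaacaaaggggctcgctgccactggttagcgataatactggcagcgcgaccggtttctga

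Counted from the annotated start, the first base of the core lies at -104 in TGFBR1, at -62 in SMAD7 and at -82 in GDF5. The TGFBR1 and SMAD7 promoters are each 1 of several annotated starts (8 and 3), and the core was in 1 of them in each gene. The TGFBR1 promoter has a GC content of 75.0%, and those of SMAD7 and GDF5 both have 49.3%.

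Further genes of the pathway, 70 of a list of 71 that matched the gene table, were counted in the same way. Of these 70, 31 had a peak at any distance (44.3%), against the background of 29.6%. There were 13 with a peak within 10 kb, where the background share was 11.5%, and 2 within 1 kb, where it was 4.16%. Genes of latency and activation of TGF-beta had peaks in 8 of 12 cases. The integrin genes ITGB6 and ITGAV, whose products release latent TGF-beta, scored 1294 at -42.5 kb and 858 at -4.78 kb, and the matrix gene THBS1 844 at 41.7 kb. SMAD cofactors and regulators had 8 of 14, led by the ubiquitin ligase gene NEDD4L (463 at 2.22 kb, 11 peaks in all), FKBP1A (391 at -6.91 kb) and the kinase gene MAP3K7 (185 at -850.0 kb). NEDD4L and FKBP1A were also the 2 with a peak within 1 kb. Other response genes had 7 of 13, led by the cell cycle inhibitor genes CDKN2B (779 at -115.7 kb) and CDKN1A (613 at 4.51 kb), and by MSX2 (603 at -25.3 kb, 14 peaks in all). Other antagonists had 3 of 11, with BMPER at 220, CRIM1 at 177 and TWSG1 at 94.3. Other ligands had 3 of 13, LEFTY1 with 419 at -9.10 kb, MSTN with 377 and BMP15 with 51.7. Other receptors and coreceptors had 2 of 7, RGMA with 395 and NEO1 with 51.5. The shares for other antagonists (27.3%), ligands (23.1%) and receptors and coreceptors (28.6%) lay below the background of 29.6%. Those for latency and activation (66.7%), SMAD cofactors and regulators (57.1%) and other response genes (53.8%) lay above it, and none was tested.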

How the data were processed

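The 2 ERRγ ChIP-seq libraries and 1 input library of BT-474 cells were read as single 50 bp reads, per the labels' protocols. The submitters' processing notes name the hg19 build and the tools MACS 1.4.1, HOMER 3.18 and BWA 0.5.9 without their roles. Neither the peak-calling threshold nor a pooling of reads is stated in these sources. The deposited table is 1 merged peak list; its score is the authors' value per peak, without a stated unit, and was used only to rank peaks within the list. GC and CpG content were deposited as a fraction, and conservation as a score between 0 and 1. Distances run from the peak centre to the nearest TSS.

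Peaks were assigned to members by the deposited gene identifier, of which 15153 of 15223 (99.5%) matched a RefSeq gene table of GRCh38.p14. That table gave symbols, biotypes and gene order only. Genes with at least 1 peak were counted over members, roles and all 20037 protein-coding genes with pandas 2.3.3, and exact intervals came from scipy 1.17.1. No test was run: 1 merged list allows none between samples. The counting was checked on simulated data. The members and lists were chosen with earlier results of these data known. Values are given in full for members in the upper 10% by score, for those with 5 or more peaks and for those within 1 kb, and members without a peak are named; for the other lists the 3 genes with the highest score are named. Of the further pathway genes listed, TDGF1 did not match; 1 more gene of the pathway is not reported here. Alternatives were distances of 1, 10, 50 and 100 kb, the upper 50% and 10% of peaks, merging of peaks within 500 bp, leaving out chromosomes 17 and 20, counting the annotated transcript's gene, and another background.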

Additional observations from a re-analysis of the deposited data

How the results depend on the processing

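The member counts moved by over 1.5 times with the distance and the score limit and with no other alternative tried. Within 1 kb, counted by peak centre, 0 members had a peak in every role and 0 peaks remained. Within 10 kb there were 10 members with 11 peaks (4 ligands, 2 receptors, 0 receptor or common SMADs and 0 intracellular inhibitors), and the median strongest score was 116 instead of 226. Within 50 kb there were 22 members with 29 peaks and a median of 127. The upper 50% of peaks left 43 member peaks. The upper 10% left 8 members with 12 peaks (2 ligands, 0 antagonists, 3 receptors, 1 receptor SMAD, 1 intracellular inhibitor and 1 ID gene) and, by its construction, a median of 1186. The strongest scores of ID2, ID4 and SMAD3 rested on peaks beyond 100 kb: within it they were 612, 75.1 and 162. Merging peaks, leaving out chromosomes 17 and 20 (26 members) and counting the gene of the annotated transcript (27 members) kept every count within 1.5 times. Over only the genes named in the table, the background within 10 kb was 38.7% instead of 11.5%, and that of the members 37.0% (10 of 27) instead of 19.6%. The 7-base core was in 4.05% of member promoters and the 9-base element in 0. No paired analysis was possible because the merged list used here has no value per library, and for the same reason no library could be left out; signal tracks of single libraries were not analysed here. Depth is unknown, so a member without a peak may have binding below the authors' threshold.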

Other observations

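The ACVR1B peak was annotated as intronic and lay 1649 bp downstream of the TSS used by the deposited table. This distance was close to that between annotated starts of the gene, which does not by itself place the peak at either start. The RefSeq promoter table of GRCh38.p14 lists 2 starts of ACVR1B, the second 1685 bp downstream of the first, which differs by 36 bp from the distance of the peak centre. Among the 66 member peaks it was the only one whose distance came within 1000 bp of a distance between starts of its gene. The share of such matches over other genes was not computed, so the match has no background beside it. Only peaks of genes with 2 or more listed starts could match, and many of the 66 belong to genes with 1. Coordinates were not converted between builds, and which of the 2 starts is the TSS of the deposited table was not tested. If it is the second start, the peak lies downstream of both, and the closeness of the 2 distances has no meaning for its position. The promoter of this second start, from 250 bases before it to 50 after, has a GC content of 46.7%, against 82.3% at the first start, and holds no AAGGTCA core on either strand.
ACVR1B, chr12:51953134-51953433, plus strand: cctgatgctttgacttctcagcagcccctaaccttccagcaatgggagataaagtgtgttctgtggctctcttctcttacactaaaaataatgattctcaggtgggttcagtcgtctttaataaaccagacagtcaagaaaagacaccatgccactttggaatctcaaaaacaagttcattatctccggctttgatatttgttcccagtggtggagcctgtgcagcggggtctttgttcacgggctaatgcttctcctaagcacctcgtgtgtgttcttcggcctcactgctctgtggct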
